A study of Homo sapiens with 30 samples.

Results

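The catalytic activity of NSD2 was compared here in cells that also carried the short isoform MMSET I. The comparison sets the line WT+MMSET1 (3 arrays) against the line CDM+MMSET1 (3 arrays), which are 6 of the 30 arrays of the series, and the members were all arrays whose titles name these lines. The cells were KMS11, a human multiple myeloma line that overexpresses NSD2 (MMSET, WHSC1) from a chromosomal translocation. Per the labels, WT+MMSET1 cells carried transgenes for WT NSD2 and for the MMSET I isoform, and CDM+MMSET1 cells carried the catalytic dead mutant (CDM) of NSD2 together with MMSET I. The labels name no recipient of the transgenes. From knowledge of the study, and not from the labels, they were added to KMS11 cells whose overexpressed NSD2 had been removed; the line TKO is labelled as an NSD2 knockout. Other lines of 3 arrays each appear below for reference: PAR is the parental line, WT carries active NSD2 alone, CDM the inactive mutant alone and MMSET1 the short isoform alone. Replicates were separate cultures according to the series design. Each transgene combination is 1 line, a line given only a vector was not analysed here, and other differences between the derived lines cannot be told apart from the catalytic activity.

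NSD2 is a histone methyltransferase that places methyl groups on lysine 36 of histone H3 (H3K36) through its SET domain, a mark of transcribed chromatin that opposes the repressive methylation of lysine 27 by Polycomb repressive complex 2. MMSET I is made from the same gene by alternative splicing; it keeps the amino-terminal chromatin-binding region and lacks the SET domain. In myeloma with this translocation, full-length NSD2 and MMSET I are overexpressed together, and the comparison therefore addresses how expression depends on the enzyme when the inactive isoform is present. Levels are given on the log2 scale of the authors' RMA, on which a difference of 1 is a 2-fold change. Differences are WT+MMSET1 minus CDM+MMSET1 with the standard error (SE) of limma's moderated test (n = 3 arrays per line), and a gene is called higher or lower when its p adjusted by Benjamini-Hochberg over all 13137 genes tested is under 0.05. A level under 5.013, the median of all values of the table, is called dim, since RMA gives every probe set a value and carries no call of presence.

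The arrays separated the lines before any test. Across the genes tested, the WT+MMSET1 arrays correlated with each other at 0.991 to 0.992, the CDM+MMSET1 arrays at 0.997, and arrays of different lines at 0.949 to 0.964. Of 13137 genes, 4219 (32.1%) were called, 2120 higher in WT+MMSET1 (16.1%) and 2099 lower (16%). The median difference over all genes was -0.02. Calls were even in number but uneven in size: 654 genes (4.98%) were at least 2-fold higher and 187 (1.42%) at least 2-fold lower, and at 4-fold the counts were 182 and 20. The median size was 0.72 among the genes called higher and -0.52 among those called lower. Arrays of the 2 lines did not overlap at 6968 genes (53%). Of the 654 genes at least 2-fold higher, 209 (32%) were dim in CDM+MMSET1, so for these the size is one of array values near the floor; of the 187 lower genes 14 were dim in WT+MMSET1. Taking the average of a gene's probe sets instead of the brightest one moved the split of calls to 1737 higher and 2300 lower and the count at least 2-fold higher to 405. The count of called genes changed when 1 array was left out, which also left fewer arrays to fit. Without WT+MMSET1 replicate 1 it was 2526 genes (1382 higher, 1144 lower, 107 of them at least 2-fold lower), and without WT+MMSET1 replicate 3 it was 3791. Without CDM+MMSET1 replicate 2 or 3 the genes called lower numbered 1380 and 1393.

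**Figure D1:**
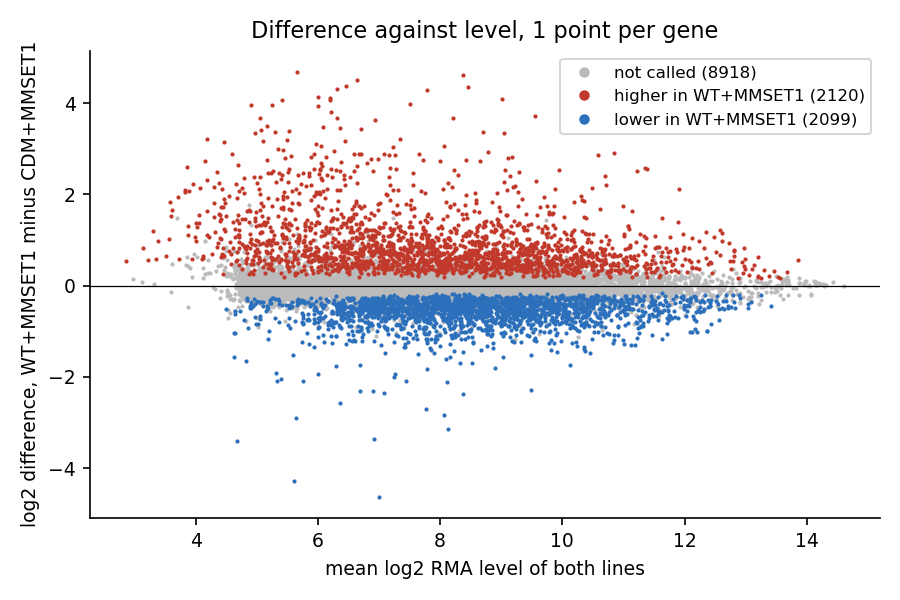
Difference between WT+MMSET1 and CDM+MMSET1 (log2, vertical axis) against the mean log2 RMA level of both lines (horizontal axis), 1 point for each of 13137 genes; red and blue points are the 2120 and 2099 genes called higher and lower. The upper side reaches further from 0 than the lower side.

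NSD2 itself was read on 6 probe sets, which see the endogenous gene and the transgenes as far as their target lies in each. The brightest read 10.48, 10.46 and 10.18 in WT+MMSET1 and 10.22, 10.24 and 10.41 in CDM+MMSET1. These arrays overlap, and the difference of 0.08 (SE 0.10) was not called (adjusted p = 0.677 over probe sets, limma). Signal on another was 7.81, 7.84 and 7.61 in WT+MMSET1 and 7.17, 7.04 and 7.01 in CDM+MMSET1, higher on all arrays by 0.68 (adjusted p = 0.0354, limma). A further probe set was also higher, at 8.42, 8.74 and 8.53 against 8.07, 8.10 and 8.05 (difference 0.49, adjusted p = 0.0228, limma). The other 3 probe sets, with differences of 0.31, -0.17 and -0.42, were not called. In TKO and PAR the 6 probe sets averaged 10.18 and 10.61, 7.39 and 8.37, 7.69 and 8.08, 7.77 and 8.57, 8.20 and 7.98, and 10.16 and 10.26, in the order given, so that NSD2 probe signal in the line labelled knockout was close to that of PAR on several of them. Between WT+MMSET1 and CDM+MMSET1 it differed on 2 of 6 probe sets, and the part of this in the results was not tested.

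Genes reported elsewhere as NSD2 targets gave 2 of 3 tested members called higher, beside 16.1% of all genes. RRAS2, a GTPase of the RAS family, read 6.83, 6.94 and 6.90 in WT+MMSET1 and 3.19, 2.78 and 2.85 in CDM+MMSET1. The arrays lie far apart, with RRAS2 dim on every CDM+MMSET1 array. The difference was 3.95 (SE 0.14, adjusted p = 1.65e-15, limma), the smallest p of the table. RRAS2 stood at 6.80 in WT, 2.77 in CDM, 2.79 in MMSET1 and 3.04 in TKO. Low levels were not limited to lines without catalytic activity by label. In H762Y, a line with another NSD2 mutation, the 3 tested targets averaged 3.98, beside 3.99 in CDM and 6.02 in WT. TGFA, a ligand of the EGF receptor, read 6.14, 6.64 and 6.64 against 4.34, 3.86 and 3.80, a difference of 2.48 (SE 0.42, adjusted p = 0.000155, limma) without overlap, although the other 2 TGFA probe sets differed by only -0.06 and 0.08. MET, the receptor of hepatocyte growth factor, was at 5.40, 5.33 and 5.59 against 5.56, 5.54 and 5.48. Its arrays overlap and it was not called on this probe set (adjusted p = 0.488, limma), while 1 of the other 3 MET probe sets was called higher by 1.25.

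The 15 genes with the highest differences were led by GALNT3, an enzyme that starts O-linked glycans, at 8.23, 7.74 and 8.01 in WT+MMSET1 and 3.50, 3.42 and 3.01 in CDM+MMSET1 (difference 4.68, SE 0.48, adjusted p = 2e-07, limma). ADCY1, an adenylyl cyclase that makes cyclic AMP, read 9.16, 8.57 and 8.99 against 4.20, 4.17 and 4.79. ESRP1, an epithelial regulator of splicing, read 8.98, 8.00 and 8.97 against 4.43, 4.07 and 4.34. Each of these genes was dim on every CDM+MMSET1 array and bright on every WT+MMSET1 array. GRB10, an adaptor that restrains insulin receptor signalling, differed by 4.30, GSAP, a protein linked to gamma-secretase, by 4.13 and TRPC1, a cation channel, by 3.96. LRATD2 (4.30), BEX4 (4.12) and MPPED2 (4.06) followed. CLGN, a chaperone of the endoplasmic reticulum, was at 11.63, 10.38 and 11.17 against 6.93, 6.89 and 7.08 (difference 4.10, SE 0.78). It was bright in both lines, and WT+MMSET1 replicate 2 gave its lowest WT+MMSET1 value. The remaining members of the 15 were RRAS2 and 4 genes described with the amino acid response below: INHBE, ATF3, SLC6A15 and ALDH1L2.

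Probe sets of a gene did not always move alike. Averaging them left GALNT3 at 2.47, LRATD2 at 1.46, ADCY1 at 1.43, GRB10 at 2.10, MPPED2 at 2.63, SLC6A15 at 1.93, ALDH1L2 at 2.62 and ATF3 at 2.22, all still called by limma. The other probe set of GALNT3 differed by 0.25, and those of LRATD2 by -0.07 and 0.14. For RRAS2, GSAP and TRPC1 every other probe set was also called higher. Among the lowest genes, averaging moved MYOF to -2.28, PCDH10 to -1.73, TCF7L2 to -1.06, CHRNA1 to -1.88 and INSM1 to -1.48, and the other 3 probe sets of KITLG differed by -0.34 to -0.02. Genes of the lists below were lowered too, though still called: TGFA to 0.83, ERN1 to 1.66, VEGFA to 1.01, COL4A4 to 0.99, LARP6 to 1.24, PRKACB to 1.93, CDH2 to 0.87, ITGB1 to 0.26 and CR2 to 1.25. Likewise BCL2 was at 0.30, SMAD3 at 0.61, KDM6B at 0.35, TGFBR2 at -0.54, DUSP4 at -0.49, TP53BP1 at -0.41 and SPIB at -0.38, whereas MCM6 moved up to 0.78.

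In the other direction, ADM, which encodes the vasodilator peptide adrenomedullin, read 4.66, 4.80 and 4.58 in WT+MMSET1 and 9.24, 9.31 and 9.38 in CDM+MMSET1. It was dim with the active enzyme and bright without it, a difference of -4.62 (SE 0.44, adjusted p = 5.31e-08, limma). MYOF, a membrane repair protein of the ferlin family, read 3.68, 3.69 and 3.03 against 7.79, 7.45 and 8.03. PCDH10, a protocadherin, read 5.04, 5.61 and 5.03 against 8.33, 8.67 and 8.80. Secreted or membrane signalling proteins in this group were KITLG, the ligand of the receptor KIT (-2.58), CBLN2, a synapse organiser (-2.70), CLEC7A, the receptor for fungal glucans (-2.38), and CHRNA1, a subunit of the muscle acetylcholine receptor (-2.90). Transcription factors were INSM1, a zinc finger protein of neuroendocrine cells (-2.31), and TCF7L2, a partner of beta-catenin (-2.30). The rest were ERICH3 (-3.42), RERG, a growth-inhibiting GTPase (-2.34), HBD, a haemoglobin chain (-2.83), and CYP26A1, which breaks down retinoic acid (-2.10).

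The last members of this group rested on uneven arrays. OLFML2B, an extracellular matrix protein, read 5.75, 7.92 and 5.99 in WT+MMSET1 against 9.78, 9.66 and 9.65 in CDM+MMSET1, with replicate 2 of WT+MMSET1 lying between the lines (difference -3.14, SE 0.84, adjusted p = 0.00732, limma). ACOT7, a thioesterase of fatty acyl-CoA, showed the same pattern, 7.79, 9.25 and 7.99 against 10.57, 10.56 and 10.79. Its difference of -2.30 (adjusted p = 0.0269, limma) was no longer called when any of the CDM+MMSET1 arrays (adjusted p = 0.0583, 0.0602 and 0.072) or replicate 1 or 3 of WT+MMSET1 (adjusted p = 0.105 and 0.0746) was left out. In these settings the difference itself stayed between -2.34 and -2.02.

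**Figure D2:**
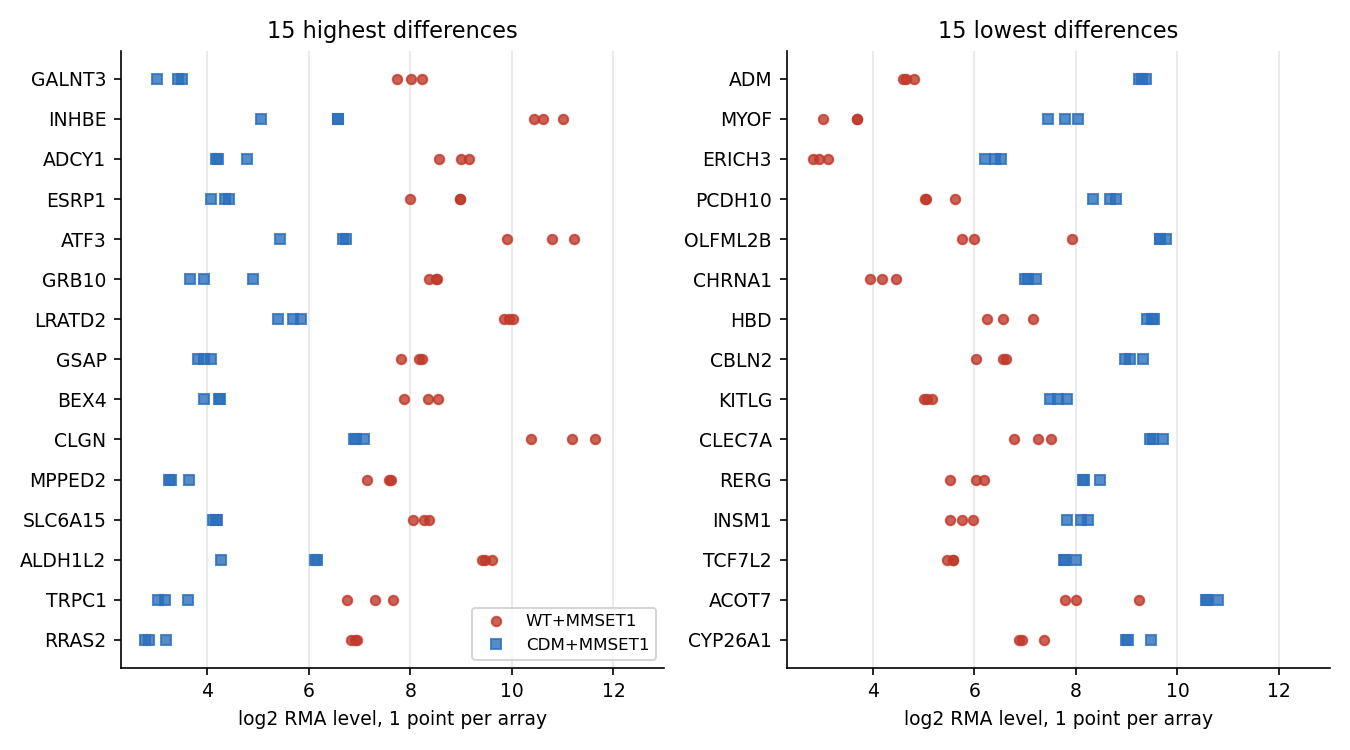
Log2 RMA level (horizontal axis) of the 15 genes with the highest and the 15 with the lowest differences, 1 point per array, with 3 WT+MMSET1 arrays (red circles) and 3 CDM+MMSET1 arrays (blue squares) for each gene. The arrays of the lines do not overlap at any of the 30 genes, which the rule required; OLFML2B and ACOT7 each have 1 WT+MMSET1 array set apart from the other 2.

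Genes of the amino acid response were the list most often called. This program is run by ATF4, a transcription factor translated when amino acids are scarce or the endoplasmic reticulum is stressed, and it raises enzymes of serine and asparagine synthesis, stress factors and transporters. Of 17 ATF4 response genes tested, 16 were higher in WT+MMSET1 and 0 lower, beside 16.1% and 16% of all genes, and 13 were at least 2-fold higher. The median difference was 2.37, beside -0.02 for all genes. Each array left out in turn kept the count at 16. NUPR1, a stress-induced chromatin protein, was the exception, at 5.59, 5.66 and 5.31 against 5.43, 5.46 and 5.46.

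Biosynthetic enzymes of the list moved on every array. ASNS, asparagine synthetase, read 13.09, 12.84 and 12.99 in WT+MMSET1 and 11.01, 11.00 and 10.54 in CDM+MMSET1, a difference of 2.12 (adjusted p = 0.000417, limma). In the serine pathway, PHGDH, its first enzyme, read 10.24, 10.23 and 10.52 against 8.05, 7.99 and 7.38, and PSAT1, the next, 11.93, 11.83 and 11.96 against 9.73, 9.68 and 9.08. All 3 genes were bright in both lines, and CDM+MMSET1 replicate 3 gave the lowest value of each. PSPH, the last enzyme of serine synthesis, differed by 1.74, and the mitochondrial folate enzymes SHMT2 and MTHFD2 by 0.99 and 0.64.

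Stress factors moved further. ATF3, a transcription factor induced by ATF4, read 10.79, 9.90 and 11.22 against 6.67, 6.72 and 5.43 (difference 4.36, SE 0.92, adjusted p = 0.00124, limma). INHBE, an activin chain, read 10.61, 10.44 and 11.00 against 6.57, 6.57 and 5.05, and ALDH1L2, a mitochondrial folate enzyme, 9.61, 9.40 and 9.46 against 6.17, 6.12 and 4.27. For these genes too the arrays stood apart, and CDM+MMSET1 replicate 3 was more than a 2-fold step below the other arrays of its line. SESN2 (3.36) and DDIT4 (2.91), inhibitors of the growth kinase mTORC1, TRIB3 (2.87), a pseudokinase that feeds back on ATF4, STC2 (2.88), a secreted glycoprotein, CEBPB (2.55) and DDIT3 (1.95), partners of ATF4, and CHAC1 (2.39), which degrades glutathione, were all called. ATF4 RNA itself differed by 0.83 (adjusted p = 0.00261, limma). INHBE and ALDH1L2 are no members of the list, and ATF3 was not counted in it.

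Because these genes moved together, the window from 250 bases before to 50 bases after the start site was searched for the letters TGATGNAA on either strand (TTNCATCA on the other), the core of the composite element that ATF4 binds with a C/EBP protein. The 250 bases before the start are shown for ASNS, CHAC1 and ATF3, all at RefSeq start sites of build GRCh38.p14, with the match in capitals. The ASNS stretch is chr7:97872409-97872658 on the minus strand with a match that begins 68 bases before the start, CHAC1 is chr15:40953221-40953470 on the plus strand with a match on the opposite strand 209 bases before the start, and ATF3 is chr1:212565157-212565406 on the plus strand with a match 191 bases before.
ASNS: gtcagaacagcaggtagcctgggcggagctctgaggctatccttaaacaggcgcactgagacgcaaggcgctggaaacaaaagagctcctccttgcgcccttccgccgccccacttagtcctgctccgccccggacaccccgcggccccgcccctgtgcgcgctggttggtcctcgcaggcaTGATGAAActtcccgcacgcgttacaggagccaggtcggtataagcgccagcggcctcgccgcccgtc
CHAC1: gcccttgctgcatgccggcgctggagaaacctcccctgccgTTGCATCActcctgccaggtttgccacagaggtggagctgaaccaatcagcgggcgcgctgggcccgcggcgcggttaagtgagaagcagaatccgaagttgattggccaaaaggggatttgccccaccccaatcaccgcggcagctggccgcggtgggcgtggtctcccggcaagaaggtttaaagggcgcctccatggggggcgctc
ATF3: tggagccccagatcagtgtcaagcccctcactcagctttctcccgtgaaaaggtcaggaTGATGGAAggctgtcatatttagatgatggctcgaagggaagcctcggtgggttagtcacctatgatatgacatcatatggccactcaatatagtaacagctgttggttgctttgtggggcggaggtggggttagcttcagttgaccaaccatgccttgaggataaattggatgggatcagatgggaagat
A gene was counted if any of its RefSeq windows held the letters. They occurred in 290 of 10518 tested genes with a RefSeq promoter window of 300 bases (2.76%), and in 42 of 524 genes called at least 2-fold higher (8.02%). Among genes called at least 2-fold lower they occurred in 5 of 153 (3.27%). Of the 14 ATF4 response genes with a window, 2 held them. For comparison, the E-box CACGTG was found for 12.5% of all genes with a window and 11.3% of those at least 2-fold higher. The cAMP response element TGACGTCA was found for 3.74% and 2.48%, and the CCAAT box for 42.8% and 46.9%. How many windows a gene had was not compared between the sets. Besides ATF3 and CHAC1, genes at least 2-fold higher with a match included IGF2BP2, which binds messenger RNA (difference 3.45), JDP2, a factor of the ATF family (2.50), and GOT1, which makes aspartate (2.27). A match of letters describes the sequence and does not show binding.

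Amino acid transporters were mostly higher as well. Of 11 tested, 10 were higher and 0 lower (median 1.15, beside -0.02 for all genes), and 7 were at least 2-fold higher. The share called was 90.9%, beside 32.1% of all genes. SLC6A15, a carrier of branched-chain amino acids and proline, read 8.36, 8.27 and 8.04 against 4.11, 4.20 and 4.18. SLC7A11, the cystine importer, read 10.09, 9.57 and 10.38 against 7.76, 7.40 and 6.70, and SLC43A1, a carrier of large neutral amino acids, 8.21, 8.35 and 8.29 against 6.45, 6.14 and 5.96. All arrays of SLC6A15 were dim in CDM+MMSET1, whereas SLC7A11 and SLC43A1 were not. SLC3A2, the shared heavy chain of several carriers, differed by 1.22, its partner SLC7A5 by 0.97 and the glutamine carriers SLC1A5 and SLC38A2 by 1.15 and 1.16. SLC36A4 differed by 0.50 (adjusted p = 0.124, limma).

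Averaged over the list, the ATF4 response genes stood at 10.71, 10.55 and 10.82 on the WT+MMSET1 arrays and at 8.86, 8.83 and 8.44 on the CDM+MMSET1 arrays. The WT arrays lay at 10.67 to 10.83, with those of WT+MMSET1 close beside them. CDM arrays lay at 9.06 to 9.36 and MMSET1 arrays at 9.08 to 9.53, so that the CDM+MMSET1 arrays were the lowest except for 1 H762Y array (8.69). The level also varied within lines that share a genotype: TKO arrays spanned 9.11 to 10.09 and H762Y arrays, whose NSD2 transgene has the mutation of that name, 8.69 to 10.71.

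**Figure D3:**
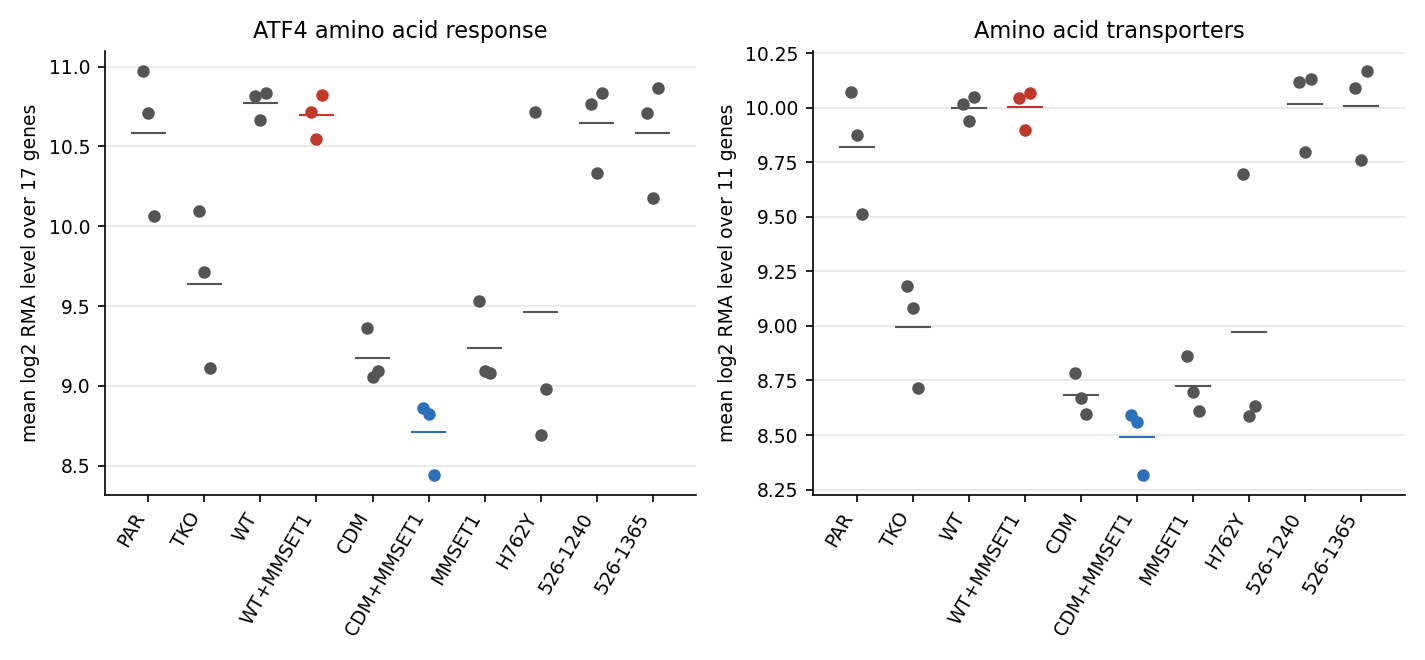
Mean log2 RMA level over the 17 ATF4 response genes (left) and the 11 amino acid transporters (right) on each array, with 3 points and their mean (bar) for each of the 10 lines; WT+MMSET1 is red and CDM+MMSET1 blue. WT+MMSET1 sits with WT and PAR, and CDM+MMSET1 sits with CDM and MMSET1 at the low end.

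Secretory stress genes split. Of 18 unfolded protein response genes tested, 8 were higher and 4 lower (median 0.11, 66.7% called beside 32.1% of all genes). ERN1, the stress sensor IRE1, read 10.86, 10.28 and 10.37 against 7.95, 7.74 and 7.43, a difference of 2.80 (SE 0.61, adjusted p = 0.00164, limma). DNAJB9, a co-chaperone that restrains IRE1, differed by 1.98 and HERPUD1, of the degradation pathway, by 1.07. CLGN, the chaperone named above, was the highest member at 4.10. Other chaperones and folding factors of the lumen were lower or not called, among them SDF2L1, which differed by -1.10 (adjusted p = 0.00778, and 0.0574 without WT+MMSET1 replicate 1, limma), CRELD2 by -0.68, and HSPA5, the master chaperone BiP, by -0.47 (adjusted p = 0.0674). The count of lower members was 2 without WT+MMSET1 replicate 1, WT+MMSET1 replicate 2 or CDM+MMSET1 replicate 2.

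Genes of basement membrane collagen and its processing were higher in 7 of 11 tested members and lower in 1, with a median of 0.66. The share called was 72.7%, beside 32.1% of all genes. COL4A3, a chain of type IV collagen, read 8.18, 8.05 and 7.67 against 4.04, 3.70 and 4.36 (difference 3.93, SE 0.41, adjusted p = 2.54e-07, limma). The other 6 COL4A3 probe sets differed by -0.10 to 1.61 and 2 of them were called higher. Its partner chain COL4A4 read 7.52, 7.70 and 7.00 against 5.27, 5.19 and 5.45, and LARP6, which binds collagen messenger RNA, 7.18, 6.98 and 6.77 against 4.26, 4.25 and 3.89. These 3 genes stood apart on every array. PLOD2, a collagen lysyl hydroxylase, differed by 2.06, although its WT+MMSET1 level of 4.69 to 5.10 was itself near the dim limit. The related PLOD1 was lower by a difference of -0.88 (adjusted p = 0.0291), which was lost without any of 5 of the 6 arrays (adjusted p = 0.0512 to 0.1), WT+MMSET1 replicate 2 being the exception.

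Among adhesion receptors, integrins and cadherins are given separately. Of 19 integrins tested 2 were higher and 1 lower (15.8% called, below the 32.1% of all genes). ITGA2, a collagen receptor chain, differed by 1.45 on its brightest probe set and by 0.05 on the other, and ITGB1, its partner, by 0.57 (adjusted p = 1.17e-06, limma). ITGA4, the chain of the VCAM-1 receptor, read 8.64, 8.72 and 8.71 against 9.73, 9.82 and 9.78, lower on every array by a difference of -1.09 (SE 0.18). Of 8 tested members of the cadherin list, 2 were higher and 4 lower (75% called, beside 32.1% of all genes). The list also held ALCAM and CTNNB1, which are not cadherins. ALCAM, a cell adhesion molecule, was 1 of the higher members, at 1.27 on its brightest probe set and 0.02 to 0.34 on 2 others. CDH2, N-cadherin, read 5.62, 7.17 and 5.82 against 4.96, 4.53 and 5.05. Its difference of 1.35 (adjusted p = 0.0123, limma) rested on replicate 2 of WT+MMSET1, and without that array it was 0.87 (adjusted p = 0.101); without CDM+MMSET1 replicate 2 it was 1.20 (adjusted p = 0.0558), and no cadherin was then called higher. Just 1 higher member was called without WT+MMSET1 replicate 1 or 2. Without CDM+MMSET1 replicate 3 or WT+MMSET1 replicate 1 the members called lower were 2.

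Cyclic AMP signalling genes moved in opposite directions by subunit. Of 21 tested, 6 were higher and 5 lower (median 0.00, 52.4% called beside 32.1% of all genes). Besides ADCY1, PRKACB, a catalytic subunit of protein kinase A, read 8.32, 8.10 and 7.92 against 4.33, 4.25 and 4.34 (difference 3.81, SE 0.18, adjusted p = 4.09e-13, limma), and PRKAR2B, a regulatory subunit, read 8.54, 8.48 and 8.12 against 5.67, 5.48 and 5.67. PRKACB was dim in CDM+MMSET1 on all 3 arrays, and PRKAR2B was not. Of the sister subunits, PRKACA was not called (-0.13, adjusted p = 0.221) and PRKAR2A was lower (-0.41, adjusted p = 0.048, limma). GNAI1, an inhibitory G protein subunit, differed by 1.16, and its relative GNAI2 by -0.57 (adjusted p = 0.00657, limma). The 6 higher members stayed at 6 without any array, whereas the lower ones were 2 without CDM+MMSET1 replicate 2 or 3 and 3 without CDM+MMSET1 replicate 1 or WT+MMSET1 replicate 2 or 3.

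Genes that report RAS and MAP kinase output were called in 5 of 14 members (35.7%), 3 higher and 2 lower, near the 32.1% of all genes. DUSP5, a phosphatase of nuclear ERK, read 11.01, 10.77 and 11.02 against 8.93, 8.75 and 8.79, a difference of 2.11 (SE 0.34). DUSP6, the cytoplasmic ERK phosphatase, went the other way at 9.90, 10.80 and 10.42 against 11.32, 11.81 and 11.83, and DUSP4 differed by -0.82 (adjusted p = 0.0016, limma). Neither gene's arrays overlap, so members of 1 phosphatase family differed in direction on all arrays. The sprouty genes SPRY1, SPRY2 and SPRY4 and the ETS factors ETV1, ETV4 and ETV5 were not called. In the TGF-beta pathway 3 of 16 genes were higher and 3 lower (37.5% called, also near that of all genes): SMAD3, a signal carrier, differed by 1.93 on its brightest probe set but by 0.02 to 0.28 on its 3 others, SMAD7, an inhibitor, by 0.56, and the receptor TGFBR2 by -0.96 (adjusted p = 1.09e-05, limma). Its lower members were 1 without CDM+MMSET1 replicate 2 or WT+MMSET1 replicate 1 or 3.

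Among BCL2 family genes, which set the threshold of apoptosis, 5 of 14 were higher and 0 lower (median 0.16). The share called, 35.7%, was near the 32.1% of all genes. PMAIP1, the killer protein NOXA that is also a target of ATF4, read 11.90, 11.57 and 12.12 against 10.24, 10.27 and 9.84. MCL1, a survival protein that NOXA binds, read 12.97, 12.63 and 12.57 against 11.78, 11.67 and 11.76, and BCL2, another survival protein, 10.93, 11.07 and 10.82 against 9.92, 9.90 and 9.90. The called members thus held both killers and protectors, with BMF, a killer, at 1.10. The other 9 members were not called, namely BCL2L1, BCL2L2, BAX, BAK1, BOK, BAD, BID, BCL2L11 and HRK. The other 3 BCL2 probe sets differed by -0.02 to 0.15, and with probe sets averaged 3 members of the list were called lower.

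Immune genes showed small shifts with some exceptions. The shares called were 41.2% for class I, 7.14% for class II, 21.4% for interferon and 58.3% for NF-kB genes, beside 32.1% of all genes. Of 17 class I antigen presentation genes 6 were higher and 1 lower (median 0.09), and HLA-C differed by 0.54 (adjusted p = 0.0107, limma). Without WT+MMSET1 replicate 1 only 1 was called higher and 0 lower, HLA-C then at adjusted p = 0.0576. CALR, a chaperone of class I assembly, was the lower member at -0.95 (adjusted p = 0.0137, and 0.0723 without that array, limma). Of 14 class II genes 0 were higher and 1 lower, HLA-DRB4 (-0.38), whose call was lost without replicate 3 of WT+MMSET1 or of CDM+MMSET1 (adjusted p = 0.124 and 0.0885). Signal of HLA genes is uncertain, as their copies are nearly identical. Of 14 interferon response genes 1 was higher and 2 lower. IFI44 read 4.57, 3.83 and 4.46 against 6.51, 6.17 and 6.42, and ISG15, a ubiquitin-like protein, 7.83, 8.16 and 7.89 against 9.27, 9.41 and 9.44. Both were lower on every array while MX1, OAS1 and IFIT3 were not called, and the 1 higher member, IRF7, lost its call without CDM+MMSET1 replicate 1 or 2 or WT+MMSET1 replicate 1. In the NF-kB list 3 of 12 were higher and 4 lower. The lower ones, among them the adhesion molecule ICAM1 (-0.51) and CD83 (-0.89), stayed at 4 without any array, whereas the higher ones fell to 0 without CDM+MMSET1 replicate 2 or 3 or WT+MMSET1 replicate 1 and to 1 without replicate 1 of CDM+MMSET1 or replicate 2 of WT+MMSET1.

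**Figure D4:**
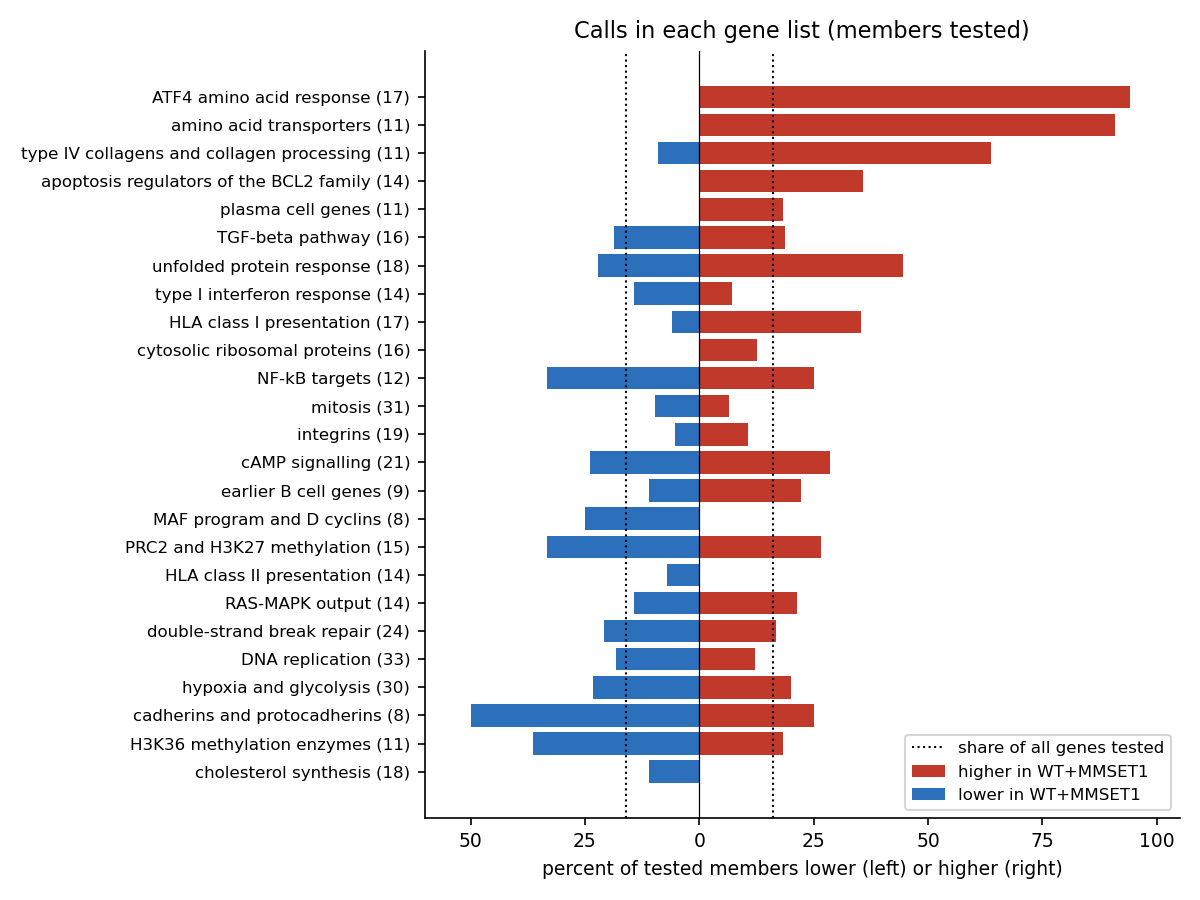
Percent of the tested members of each of 25 gene lists called higher (red, right) or lower (blue, left) in WT+MMSET1; the number of members tested stands in brackets, lists are ordered by their median difference, and dotted lines mark the shares among all 13137 genes (16.1% and 16%). The ATF4 response and the amino acid transporters have 16 of 17 and 10 of 11 members on the higher side and 0 on the lower.

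Chromatin enzymes were called often and by small amounts. Of 11 H3K36 methylation enzymes 2 were higher and 4 lower (54.5% called, beside 32.1% of all genes), none by 2-fold; the demethylase KDM4A was higher by 0.85 and the demethylase KDM2B lower by a difference of -0.58 (adjusted p = 0.00179 and 0.000679, limma). Counts without 1 array were 1 or 2 in either direction, the lowest for lower members being 1 without CDM+MMSET1 replicate 2 or 3. Of 15 genes of Polycomb repressive complexes and H3K27 methylation 4 were higher and 5 lower (60% called), again none by 2-fold. CBX7, a reader of this mark, differed by 0.96, the demethylase KDM6B by 0.54, and EZH2, the methyltransferase, by 0.42 (adjusted p = 0.0177, limma). The call of EZH2 was lost without CDM+MMSET1 replicate 2 (adjusted p = 0.0519), WT+MMSET1 replicate 1 (0.0874) or WT+MMSET1 replicate 2 (0.0558). The list then had 2 higher members. Its lower members were 2 without CDM+MMSET1 replicate 3 and 3 without any other array except WT+MMSET1 replicate 2 (4).

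Genes of proliferation and genome upkeep moved in both directions, beside 16.1% higher and 16% lower among all genes. Of 33 DNA replication genes 4 were higher and 6 lower: PRIM1, a primase subunit, was higher by 1.24 and MCM6, of the replicative helicase, by 0.47, while MCM4, of the same helicase, and MCM10 were lower, at -0.79 and -0.80. Of 31 mitosis genes 2 were higher and 3 lower, among them CDC20 (-0.60) and PLK1 (-0.36), regulators of mitotic exit and entry. Without WT+MMSET1 replicate 1 or CDM+MMSET1 replicate 1 the replication genes were 2 higher and 3 lower, without CDM+MMSET1 replicate 2 also 3 were lower, and without WT+MMSET1 replicate 3 also 2 were higher. The mitosis genes were 0 higher without any CDM+MMSET1 array or WT+MMSET1 replicate 1, and 1 higher and 5 lower without WT+MMSET1 replicate 2. Of 24 genes of DNA break repair 4 were higher and 5 lower, with LIG4, the ligase of end joining, at -0.93 and the damage mediator TP53BP1 at -0.74 (adjusted p = 9.16e-05 and 0.000475, limma). Without WT+MMSET1 replicate 1 these counts were 0 and 2. The higher members were 1 without CDM+MMSET1 replicate 1 or 3 and 2 without replicate 2, and the lower ones 3 without CDM+MMSET1 replicate 3 or WT+MMSET1 replicate 2.

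Metabolic genes of hypoxia and glycolysis were higher in 6 of 30 members and lower in 7 (median -0.18). The share called was 43.3%, beside 32.1% of all genes. VEGFA, the endothelial growth factor, read 11.21, 10.98 and 11.17 against 9.81, 9.72 and 9.28, and BNIP3L, of mitophagy, differed by 1.34. These 2 hypoxia-induced genes were higher while ADM, which hypoxia also induces, was lower. Further members of the list were not called, among them BNIP3, SLC2A1, EGLN1, EGLN3, P4HA1, KDM3A, PFKFB3 and PFKFB4. Some glycolytic enzymes were called lower: TPI1, triose phosphate isomerase, differed by -1.08 (adjusted p = 0.0155, limma), ALDOA by -1.01 and PKM by -0.77. Others were not called, among them HK1, HK2, GPI, PFKL, PFKP, ALDOC, GAPDH, PGK1 and ENO2. Without WT+MMSET1 replicate 1 TPI1 was at -0.89 (adjusted p = 0.087), 2 members were lower and 4 higher; without CDM+MMSET1 replicate 1 or 2, 4 were lower. Of 18 cholesterol synthesis genes 0 were higher and 2 lower (median -0.38), with 11.1% called beside 32.1% of all genes. SQLE, squalene epoxidase, read 7.71, 8.59 and 8.02 against 9.44, 9.55 and 9.32 (adjusted p = 0.0333, limma). Its call and the count did not hold without single arrays (0 members without CDM+MMSET1 replicate 2 or WT+MMSET1 replicate 1, 1 without any of the others), whereas 10 members were lower when only these 6 arrays were fitted.

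Markers of cell identity held few large changes. The shares called were 18.2% for plasma cell genes, 33.3% for earlier B cell genes and 25% for the MAF list. Ribosomal proteins had 12.5%, and all genes 32.1%. Of 11 plasma cell genes 2 were higher and 0 lower: TNFRSF17, the survival receptor BCMA, read 12.82, 12.91 and 12.94 against 12.14, 12.15 and 12.16 (difference 0.74, adjusted p = 2.21e-05, limma), and XBP1, the secretory factor, differed by 0.28 (adjusted p = 0.0319), a call lost without any array except CDM+MMSET1 replicate 2 (adjusted p = 0.0572 to 0.109). Without WT+MMSET1 replicate 3 1 plasma cell gene was lower. Of 9 genes of earlier B cells 2 were higher and 1 lower. CR2, the complement receptor of B cells, was at 7.03, 7.51 and 8.14 against 5.10, 5.15 and 4.80 on 1 probe set and differed by -0.04 on the other, BACH2 was higher by 1.27 and SPIB lower by a difference of -0.57, with 2 lower members without CDM+MMSET1 replicate 1. In the list of the MAF program and D cyclins, 0 of 8 were higher and 2 lower, CCR1, a chemokine receptor, at -1.93 and NUAK1, a kinase, whose call was lost without any array except CDM+MMSET1 replicate 3. Ribosomal proteins, a reference list, were higher in 2 of 16 members and lower in 0, with 0 higher without WT+MMSET1 replicate 1 and 1 without any of the other arrays.

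Other cell types were sought by their markers. Of the genes probed, 4 of 7 for T cells, 4 of 5 for monocytes and macrophages and 4 of 7 for fibroblasts were dim in both lines. The others were CD3D, CD4 and LCK, then ITGAM, and then COL1A1, DCN and PDGFRB. COL1A1 had means of 6.71 in WT+MMSET1 and 6.79 in CDM+MMSET1. Of the 7 tested genes of these lists 0 were called, beside 32.1% of all genes. Summed levels of each list in WT+MMSET1 and CDM+MMSET1 overlapped, at 33.5 to 34.5 and 33.9 to 34.2 for T cells, 21.7 to 22.4 and 21.5 to 22.3 for monocytes and 32.2 to 32.9 and 32.5 to 33.1 for fibroblasts. Erythroid genes differed: HBD read 6.24, 7.15 and 6.56 against 9.49, 9.40 and 9.54 and HBB 6.51, 6.93 and 7.12 against 8.10, 8.00 and 8.18, both lower with the active enzyme. ALAS2, the erythroid enzyme of haem synthesis, was not called (-0.12), and the summed level of the 4 erythroid genes probed was 21.1 to 22.8 in WT+MMSET1 and 26.1 to 26.8 in CDM+MMSET1. HBB and HBD are near-identical copies, so that their separate signals are uncertain. Epithelial genes were higher in 2 of 4 tested members and lower in 0 (50% called, beside 32.1% of all genes). EPCAM read 9.39, 9.33 and 9.67 against 7.98, 8.41 and 8.48 and MUC1 differed by 0.48, while the keratins KRT8 and KRT18 were not called. Their summed level over 7 genes was 38.9 to 40.4 against 37.4 to 38.1. Whether other cells contributed was not tested.

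Genes called at least 2-fold higher lay next to each other more often than their share. The RefSeq gene table (GRCh38.p14) placed 13110 of the genes, and the next tested gene along the chromosome was also at least 2-fold higher for 71 of 653 (10.9%), beside 4.98% of all genes. For genes at least 2-fold lower it was 8 of 187 (4.28%), beside 1.43%. Neighbours were found as 8 runs of 3 genes on the higher side. In the run COBLL1, SCN3A and GALNT3, COBLL1, an actin regulator, read 6.30, 5.91 and 5.93 against 3.16, 3.07 and 3.22, and SCN3A, a sodium channel, 5.94, 6.71 and 5.79 against 3.74, 4.37 and 4.54. All 3 genes of this run were dim in CDM+MMSET1. Other runs were CCDC146, GSAP and PTPN12, then FYN, TUBE1 and FAM229B, and then ABCD2, SLC2A13 and CNTN1. On the lower side there were 8 pairs, such as CYP26A1 with MYOF and KITLG with DUSP6.

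The run LARP6, LRRC49 and THAP10 includes a pair transcribed away from each other. THAP10, a DNA-binding protein with a THAP zinc finger, read 10.46, 9.90 and 9.78 in WT+MMSET1 and 6.32, 6.36 and 6.44 in CDM+MMSET1, a difference of 3.68 (adjusted p = 0.000129, limma). LRRC49, a leucine-rich repeat protein, read 7.29, 6.66 and 7.18 against 5.04, 5.21 and 4.84. Both genes stood apart on all arrays. An LRRC49 start of RefSeq lies 393 bases from that of THAP10 on the opposite strand, and the 250 bases before the THAP10 start (chr15:70892434-70892683 of GRCh38.p14, minus strand) are shown because they lie between the 2 start sites; they hold no TGATGNAA. The LRRC49 window at that start holds none either, whereas the window at its other, more distant RefSeq start has 1 match, by which LRRC49 is among the 42 genes counted above.
THAP10: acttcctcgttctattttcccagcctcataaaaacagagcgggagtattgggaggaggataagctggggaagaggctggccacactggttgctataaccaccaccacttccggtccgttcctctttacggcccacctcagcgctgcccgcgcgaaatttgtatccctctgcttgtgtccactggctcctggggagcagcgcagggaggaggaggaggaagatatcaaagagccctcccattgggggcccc

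The same contrast without MMSET I was measured on other arrays, WT against CDM (3 arrays each), where 3070 genes (23.4%) were called, 1625 higher (12.4%) and 1445 lower (11%). Across genes the differences with and without MMSET I correlated at r = 0.933, with genes not being independent replicates. Of the 2120 genes called higher with MMSET I, 1337 (63.1%) were also called higher without it, which is 82.3% of the 1625. Of the 2099 called lower, 1065 (50.7%) were also lower without it, 73.7% of the 1445. The count called in opposite directions was 0. All 654 genes at least 2-fold higher and all 187 at least 2-fold lower had the same sign in WT against CDM, and 596 and 152 of them were called there. The number called without MMSET I changed when 1 array was left out, which also left fewer arrays to fit. It was 1546, 3201 and 1920 genes without WT replicates 1, 2 and 3. Without CDM replicates 1, 2 and 3 it was 1944, 2084 and 1620.

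Leading genes had like differences with and without MMSET I. ADM differed by -4.62 with it and -4.93 without it, GALNT3 by 4.68 and 4.85, and RRAS2 by 3.95 and 4.03. The ATF4 response genes had a median of 2.37 with MMSET I and 1.67 without it, with 16 of 17 members called higher each time, and the transporters 1.15 and 0.91. MYOF stood at -4.29 with it and -2.69 without it. Whether such gaps exceed the error was asked by the interaction of limma's fit, the difference of the differences, and it called 0 of 13137 genes. At an unadjusted p under 0.05 there were 492 (3.75%). The 95% interval of the interaction lay within 2-fold for 12009 genes (91.4%), but for only 299 of the 841 genes called at least 2-fold (35.6%), so for most of the large responses a change of 2-fold by MMSET I is within the interval.

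COL4A5, a type IV collagen chain, had the smallest p of the interaction. It read 4.77, 4.66 and 4.07 in WT+MMSET1, 2.57, 2.55 and 2.87 in CDM+MMSET1, 3.31, 3.77 and 3.41 in WT and 2.80, 2.74 and 2.75 in CDM. Every value is dim, and the WT+MMSET1 arrays are the highest of the 4 lines. Its difference was 1.84 with MMSET I and 0.73 without it, a gap of 1.11 (95% interval 0.64 to 1.57, adjusted p = 0.674, limma). Without WT+MMSET1 replicate 3 the gap was 1.32 and passed (adjusted p = 0.0159), the single gene called in any of the settings tried.

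**Figure D5:**
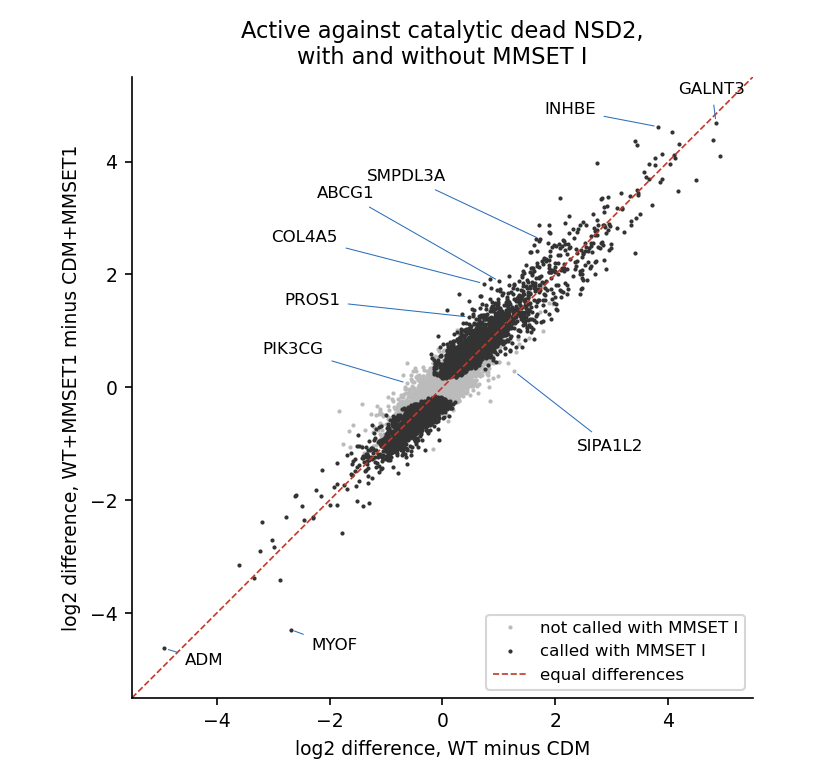
Log2 difference of the active against the catalytic dead enzyme with MMSET I (WT+MMSET1 minus CDM+MMSET1, vertical axis) against that without it (WT minus CDM, horizontal axis), 1 point for each of 13137 genes; dark points are the 4219 called with MMSET I and the dashed line marks equal differences. The points follow the line (r = 0.933). COL4A5, PIK3CG and SIPA1L2 are labelled as genes with some of the smallest p values of the interaction, none of them called, and other genes lie further from the line.

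MMSET I was also compared within each form of the enzyme. In WT+MMSET1 against WT 2 genes (0.0152%) were called, COL4A5 (1.01 higher with MMSET I, adjusted p = 0.0201) and PROS1 (0.94 higher, adjusted p = 0.0357, limma). PROS1, the anticoagulant protein S, read 7.03, 6.95 and 6.81 in WT+MMSET1 and 5.65, 6.08 and 6.24 in WT, without overlap. In CDM+MMSET1 against CDM 6 genes (0.0457%) were called. ABCG1, a sterol exporter, read 6.38, 6.67 and 5.68 in CDM+MMSET1 and 7.27, 7.44 and 7.53 in CDM, and SMPDL3A, a phosphodiesterase, 5.31, 5.74 and 4.92 against 6.35, 6.67 and 6.45. Their levels in TKO, 7.25 and 6.50, were near those of CDM. In MMSET1 the 2 genes differed. ABCG1 read 7.11, 7.19 and 7.16 there, near TKO, and SMPDL3A 5.89, 5.57 and 5.25, near CDM+MMSET1. GLMP, a lysosomal membrane protein, MARK1, a kinase of microtubule-binding proteins, and PTPRF, a receptor phosphatase, were lower by differences of -0.72, -0.62 and -0.57, and RADX, a replication fork protein, was higher by 0.62. At an unadjusted p under 0.05 these comparisons had 366 and 634 genes, 2.79% and 4.83% of those tested. With the replicate number as a block and only the 6 arrays of each comparison fitted, 0 genes were called in either. The smallest adjusted p values were then 0.101 and 0.0536 (limma). At an unadjusted p under 0.05 this fit had 1001 and 2088 of 13137 genes, more than the 366 and 634 of the fit over all lines. The 2 fits differ both in the block and in the arrays used, and these parts were not separated. The loss of calls therefore did not come with fewer small p values.

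Seen over the other lines, the 654 genes at least 2-fold higher had a median level of 7.69 in WT+MMSET1 and 6.01 in CDM+MMSET1. Their median was 7.74 in WT, 7.71 in PAR, 6.18 in CDM, 6.17 in MMSET1 and 5.96 in TKO. In H762Y, the line with another NSD2 mutation, it was 6.28, near CDM, and in the remaining lines of the series 7.70 and 7.71. The 187 genes at least 2-fold lower had medians of 7.45 and 8.81 in the 2 lines, 7.46 in WT, 8.61 in CDM, 8.59 in MMSET1 and 8.51 in TKO. PAR stood between, at 7.97. H762Y was at 8.32, and the remaining lines were at 7.67 and 7.62. These genes were chosen by the first 2 values of each set, and the other lines are given as a description.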

How the data were processed

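RNA of 10 lines (3 arrays each) was hybridised to Affymetrix HG-U133 Plus 2.0 arrays. The deposited table held log2 values of 54613 probe sets, made by the authors with RMA, per the submitters' processing notes. Its version and chip definition file were not given in the sources used here. The number of arrays limits the precision.

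The platform annotation gave 41091 probe sets with 1 gene symbol, 1801 with several and 11721 with none; the last 2 kinds were left out. For each gene the probe set with the highest mean was used. Genes were tested (13137) if at least 3 arrays exceeded 5.013, the table's median. Using limma 3.58.1 (R 4.3.3), line means were fitted over the 30 arrays, leaving 20 residual degrees of freedom, with moderated variances, Benjamini-Hochberg adjustment and a threshold of 0.05. The procedure was tested on simulated data.

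Named by rule were NSD2, reported targets, the 15 highest and 15 lowest differences among called genes without overlap of arrays, and up to 4 called members of each of 26 lists, with up to 2 against the direction of most. Members, lists and comparisons were chosen with earlier results of these data known; other genes named were chosen after their values were seen. List members were counted, with no test of the list. Promoters came from RefSeq (GRCh38.p14).

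Replicate numbers paired the arrays of WT+MMSET1 and WT, where residuals of equal numbers correlated at 0.46, 0.69 and 0.52. They did not pair those of WT+MMSET1 and CDM+MMSET1 (0.07, -0.11 and -0.14), of CDM+MMSET1 and CDM (0.24, -0.15 and -0.12) or of WT and CDM (0.21, 0.08 and 0.15).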

Additional observations from a re-analysis of the deposited data

How the results depend on the processing

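Directions held: no named gene changed sign while called, and 84 of the 118 named genes called kept their call under all alternatives that tested them (average of probe sets, other filters, median centring, quantile normalization, only the 6 arrays, without H762Y replicate 1, trended and robust variances, replicate block, leaving out each array). Averaging probe sets gave 405 genes at least 2-fold higher and removed the calls of BRCA1, CDK1, EZH1, NSD3 and PDE4A. Leaving out 1 array gave 2526 to 3791 genes called, 1382 to 2009 higher, 1144 to 1782 lower, 558 to 690 at least 2-fold higher and 107 to 216 at least 2-fold lower. For WT against CDM it gave 1546 to 3201, and for the interaction 0 to 1. Fewer arrays were then fitted. Without H762Y replicate 1, an array apart from its line, 4934 genes were called.

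The replicate block, fitted to the lines compared, gave 4809 genes for the main comparison and 3616 for WT against CDM, but 0 for WT+MMSET1 against WT (2 before) and 0 for CDM+MMSET1 against CDM (6 before). The interaction stayed at 0. In the last 2 comparisons more genes had an unadjusted p under 0.05 with the block (1001 and 2088) than before (366 and 634). The earlier fit used all lines, so the block and the arrays fitted changed together. The cause of the lost calls was not tested.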
